A study of Mus musculus with 12 samples.

Results

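The small subunit processome and 40S assembly factors, Emg1 included, were taken as 48 genes chosen by symbol. Of these, 47 were found among the 53342 genes of the deposited table, and all 47 were among the 17848 genes that were tested. Riok2 was not analysed here. RNA came from the caudal region of E10.5 mouse embryos in 12 libraries, 3 from each of 4 genotypes. These were wild type, a conditional knockout (cKO) of beta-catenin, a cKO of Emg1, and embryos with 2 copies of the loop-tail (Lp) mutation in Vangl2, a planar cell polarity gene, written Vangl2 Lp/Lp. The design text names neural tube closure as the process that the mutants impair. Each library held RNA pooled from 4 to 7 embryos, so the tests measure the spread between pools. The sources used here give neither the recombinase that drives the deletions, nor the cells it acts in, the deleted exons or the strains. All 3 mutants were compared with the same 3 wild-type libraries, so their changes against wild type are not independent of each other.

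Ribosomes are built in the nucleolus, where a large assembly called the small subunit processome forms on the nascent pre-ribosomal RNA, folds and cuts it, and releases a particle that matures into the 40S subunit. Its work is divided among subcomplexes. UTP-A binds the leader of the transcript first, UTP-B and the U3 small nucleolar ribonucleoprotein (snoRNP) follow, and later factors carry the pre-40S particle to the cytoplasm. Emg1 is a methyltransferase that modifies a pseudouridine of 18S rRNA and is itself needed for assembly, and in yeast it acts beside Nop14 and Noc4.

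Libraries held 32863562 to 46464596 expected counts, and every member had between 926 and 113853 counts in every library, so counting error was small for each of them. Within a genotype the libraries correlated at 0.985 to 0.990. The region was checked by its markers. The 8 caudal genes (Cdx2, T and 6 Hox genes of groups 9 to 11) were detected in every library. Library 1 of Vangl2 Lp/Lp stood apart from the other two of its genotype. Its caudal genes summed to 530 TPM (transcript abundance per length, scaled to a fixed library sum) against 794 and 833, and its 12 neuronal genes to 1025 TPM against 550 and 560. Role class counts for this genotype include it, and the members still called without it are named. Counts for the members together, and for other lists where they change, are also given without it.

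In wild type the members were moderately to highly abundant. Their mean level ran from 16.5 TPM for Dcaf13 to 2898 TPM for Npm1, with a median of 70.8 TPM, and 12 of the 47 were above 100 TPM. Emg1 stood at 73.9 ± 5.72 TPM (SD, n = 3), close to that median. The nucleolar proteins Npm1 and Ncl (nucleolin, 543 ± 34.6 TPM) and the box C/D snoRNP protein Nop56 (296 ± 4.28 TPM) were the 3 most abundant. Together the 47 members took 0.860 to 0.875% of all counts in wild type. That share was 0.744 to 0.774% in beta-catenin cKO, 0.709 to 0.773% in Vangl2 Lp/Lp and 0.684 to 0.745% in Emg1 cKO, with no mutant library reaching the wild-type range. Without Emg1 the members summed to 6832 to 7249 TPM in wild type, 6231 to 6491 in beta-catenin cKO, 5789 to 6504 in Vangl2 Lp/Lp and 5774 to 6242 in Emg1 cKO, again with no overlap. Npm1 weighs heavily in these shares and sums. Its mean was 2898 TPM in wild type, 2495 in beta-catenin cKO, 2361 in Vangl2 Lp/Lp and 2221 in Emg1 cKO. Sums without Npm1 were not made. In bulk RNA a lower level of the members cannot be told apart from fewer cells that express these genes.

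**Figure D1:**
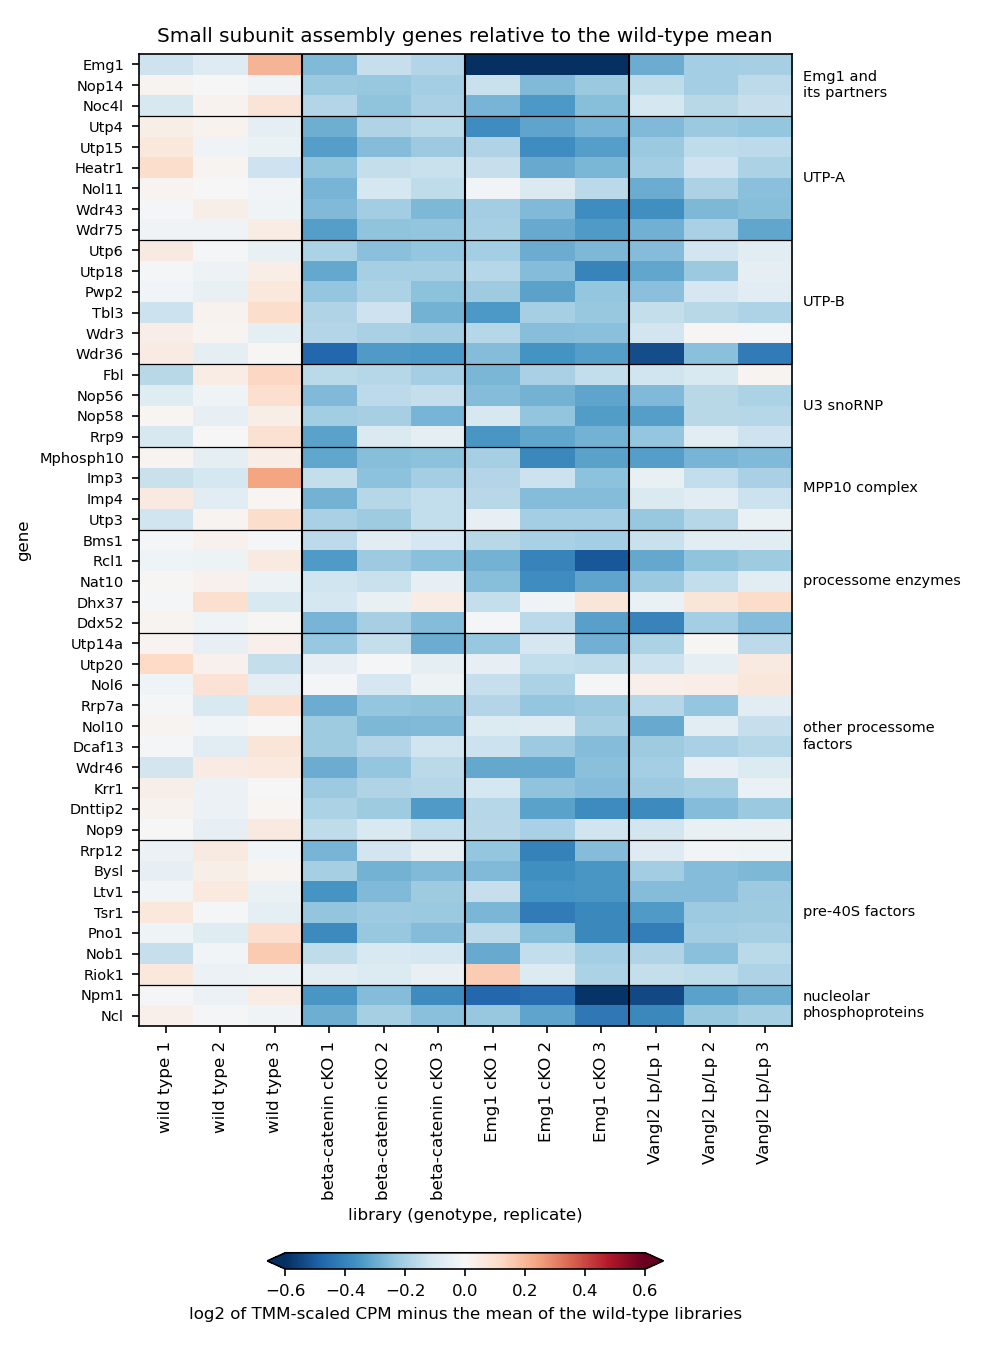
Log2 of each member's TMM-scaled CPM minus its mean over the wild-type libraries, for 47 genes (rows, by role) in 12 libraries (columns). Colours reach their limit at 0.6. The 9 mutant libraries are mostly blue, Emg1 is darkest in the 3 Emg1 cKO libraries, and Dhx37, Nol6, Utp20 and Riok1 stay pale in most libraries. On the log2(TPM + 1) scale 41 members were below 0 in each knockout and 40 in Vangl2 Lp/Lp.

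Many members were modestly lower in the mutants, most often in Emg1 cKO by count, and none was called higher. Against wild type, 29 of 47 members were lower in beta-catenin cKO (6.99% of all genes tested were), 38 in Emg1 cKO (10.4%) and 18 in the Vangl2 mutant (3.34%), at an adjusted p under 0.05 in edgeR's quasi-likelihood F test with Benjamini-Hochberg adjustment over all genes tested. No member was called higher in any mutant by edgeR, DESeq2 or voom, and 0 were higher at an unadjusted p under 0.05, whereas 7.48%, 11.3% and 5.45% of all genes tested were called higher. In either direction 14.5%, 21.7% and 8.8% of all genes were called. The median log2 fold change over the 47 was -0.21 in beta-catenin cKO, -0.26 in Emg1 cKO and -0.17 for Vangl2 Lp/Lp, which are levels 13.7%, 16.3% and 11.1% lower, while the median over all genes tested was 0.00 in each. Leaving Emg1 itself out changed little, with 29 of 46 lower at a median of -0.22, 37 of 46 at -0.26 and 18 of 46 at -0.17.

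The direction was more uniform than the calls. On the main scale 47 of 47 members had a log2 fold change below 0 in beta-catenin cKO (50% of all genes tested did), 47 of 47 in Emg1 cKO (49.3%) and 45 of 47 for Vangl2 Lp/Lp (49.8%), and on log2(TPM + 1) these became 41, 41 and 40. Also on the main scale, all 3 mutant libraries lay below all 3 wild-type libraries for 40 members in beta-catenin cKO (17.2% of all genes tested), 38 in Emg1 cKO (17.9%) and 34 for Vangl2 Lp/Lp (13.9%). Single libraries showed the same. The median of the 46 members other than Emg1, relative to the wild-type mean, was -0.01, -0.01 and 0.01 in the wild-type libraries. It was -0.23, -0.20 and -0.20 in beta-catenin cKO, -0.18, -0.26 and -0.26 in Emg1 cKO, with -0.22, -0.17 and -0.16 in Vangl2 Lp/Lp. No mutant library entered the wild-type range, whereas the ranges of the 3 mutants overlapped each other. Statements below that the libraries of a gene did not overlap are on the main scale. Some of them did not hold on TPM, among them those for Nop14, Tsr1, Wdr43 and Nat10.

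The number of calls depended on single libraries. Standard errors of the members were 0.05 to 0.09 on the log2 scale. In beta-catenin cKO the 29 lower calls became 12, 18 and 15 when its library 1, 2 or 3 was left out, and in Vangl2 Lp/Lp the 18 became 6 without its library 1. Those 6 were Wdr43 and Wdr75 of UTP-A, Wdr36 of UTP-B, Mphosph10, Bysl and Npm1, and they lie in 5 of the 9 role classes described here. All genes tested then had 1.19% called lower. Without that library the median of the 46 members other than Emg1 was -0.16, and both remaining libraries lay below wild type for 35 of 47 members (17.7% of all genes tested). On log2(TPM + 1) the calls fell to 2, 9 and 3, and the median of all genes shifted up by 0.10, 0.11 and 0.08. Relative to that shift the members' medians were -0.20, -0.25 and -0.16 there, close to those of the main scale.

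**Figure D2:**
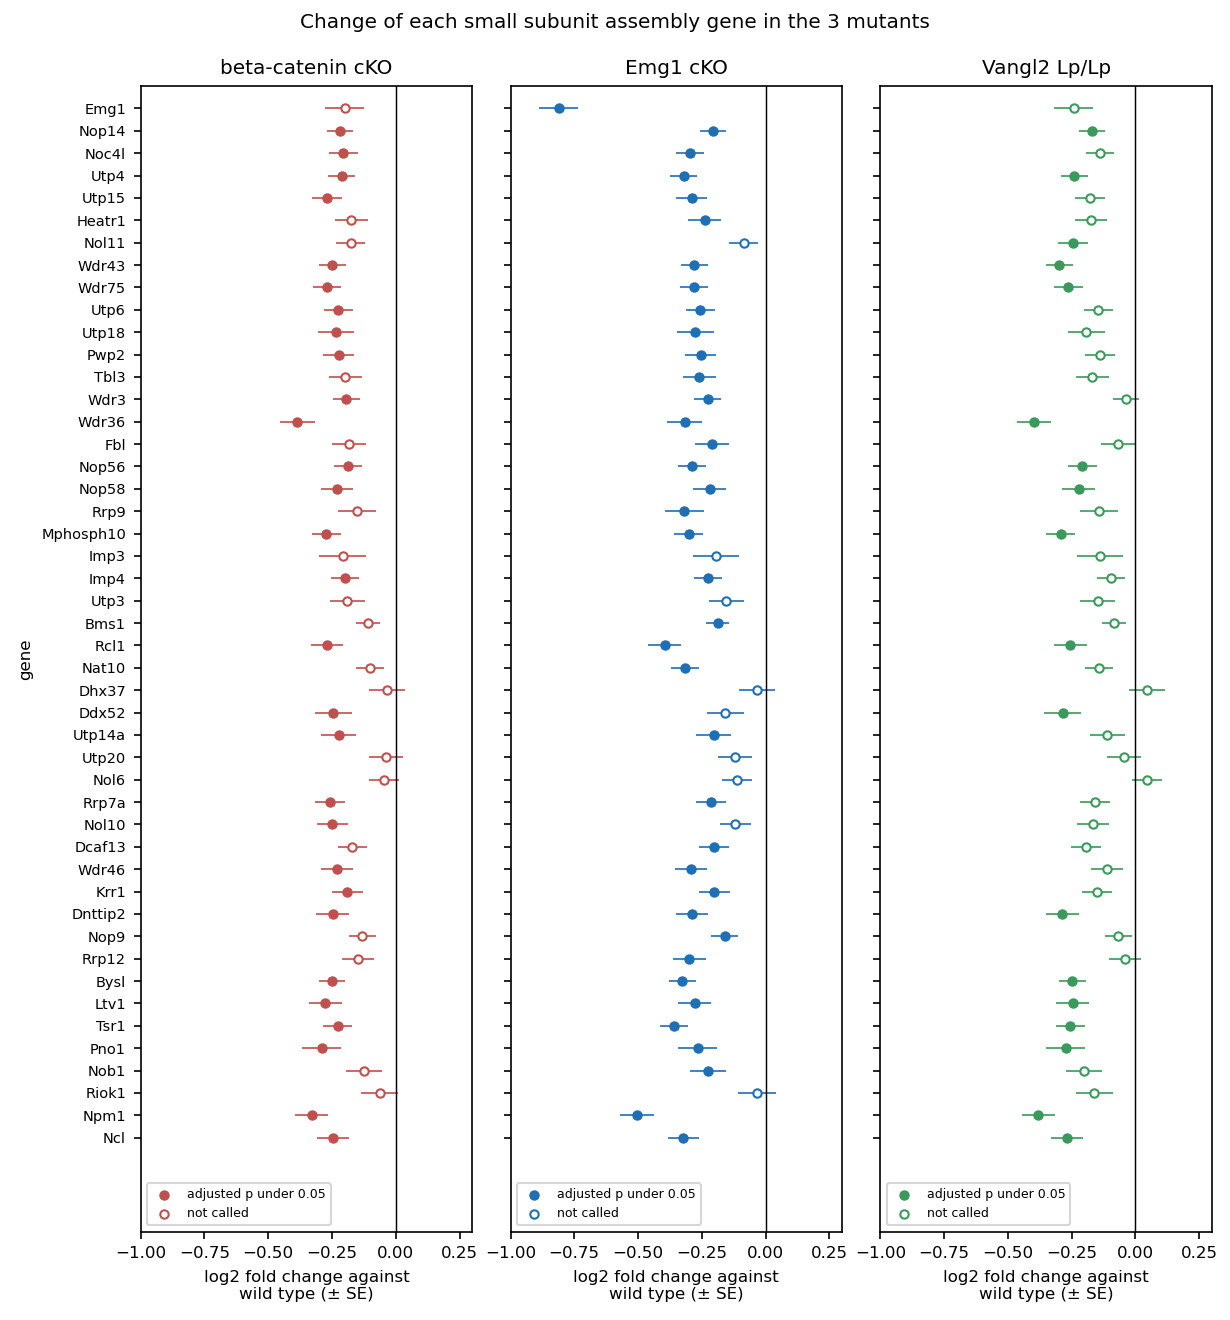
Log2 fold change against wild type (x axis, bars give the standard error) for each of the 47 members (y axis) in the 3 mutants. Filled points passed an adjusted p of 0.05. Apart from Emg1 in Emg1 cKO at -0.81, the points lie between -0.50 and 0.05 in all 3 panels, and the 2 above 0 are Dhx37 and Nol6 in Vangl2 Lp/Lp.

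Emg1 (ENSMUSG00000004268) lies on the minus strand of mouse chromosome 6, chr6:124704085-124712178 in mm10. It is the targeted gene of 1 mutant and so checks the labels. Its CPM, the count scaled to library size with TMM factors, were 99.4, 103 and 125 in wild type and 64.5, 63.4 and 58.5 in Emg1 cKO. All Emg1 cKO libraries were below all others, and the log2 fold change was -0.81 ± 0.08 (SE, adjusted p = 9.54e-06), a level 43.0% lower. The transcript was still present in every Emg1 cKO pool, and which exons its reads cover is not known from gene counts.

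Emg1 was also lower by value in the other two mutants, where it did not pass the test. It was at 90.1, 98.4 and 96.1 CPM in beta-catenin cKO (-0.20 ± 0.08, adjusted p = 0.0920) and at 88.1, 94.0 and 94.3 CPM in Vangl2 Lp/Lp (-0.24 ± 0.08, adjusted p = 0.0610). These 6 values lay below the lowest wild-type library, which was 99.4 CPM, and wild-type library 3 at 125 CPM was above the rest of its group. On TPM beta-catenin cKO reached 71.9, above the lowest wild-type value of 70.3. Against the other mutants directly, Emg1 was 0.61 ± 0.08 higher in beta-catenin cKO than in Emg1 cKO (adjusted p = 0.000459) and 0.57 lower in Emg1 cKO than in Vangl2 Lp/Lp (log2 fold change -0.57 ± 0.08, adjusted p = 0.00104). These Emg1 calls held with every library left out and under all other settings tried. In the annotation Lpcat3 overlaps Emg1 on the other strand, and the sources used here do not say whether the counting used strand, so reads of that overlap could belong to either. Of the 47 members, 16 overlap another tested gene in this way or on the same strand, Bysl (with Ccnd3) and Tsr1 (with Srr) among them.

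Nop14, which in yeast binds Emg1 and brings it to the nucleolus, was lower in all 3 mutants by about the same amount. It was at 85.4, 84.8 and 83.3 CPM in wild type, 72.3, 72.1 and 73.4 in beta-catenin cKO, 77.1, 70.3 and 72.4 in Emg1 cKO, with 75.9, 73.4 and 75.9 in Vangl2 Lp/Lp. No mutant library reached the wild-type libraries on this scale. On TPM the ranges overlapped, with a lowest wild-type value of 91.3. The highest values were 92.4 in beta-catenin cKO, 97.4 in Emg1 cKO and 93.7 in Vangl2 Lp/Lp. Its log2 fold changes were -0.22 ± 0.05 (adjusted p = 0.00955), -0.21 ± 0.05 (0.00851) and -0.17 ± 0.05 (0.0457) in that order of mutants. The call in Emg1 cKO was lost without its library 2 (adjusted p = 0.0506), and that in Vangl2 Lp/Lp was lost when any 1 of 11 single libraries was left out, with adjusted p up to 0.127.

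Noc4l, the mouse relative of yeast Noc4, was lowest in Emg1 cKO. Its levels were 70.5, 76.4 and 79.5 CPM in wild type and 62.1, 59.4 and 63.1 in Emg1 cKO, which do not overlap, and the log2 fold change of -0.30 ± 0.06 (adjusted p = 0.00163) kept its call with every library left out. In beta-catenin cKO it was at -0.21 ± 0.06 (adjusted p = 0.0229), a call lost without any 1 of 5 libraries (both wild type 2 and 3, and each beta-catenin cKO library), with adjusted p up to 0.0874. In Vangl2 Lp/Lp it was at -0.14 ± 0.06 and did not pass the test (adjusted p = 0.131).

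**Figure D3:**
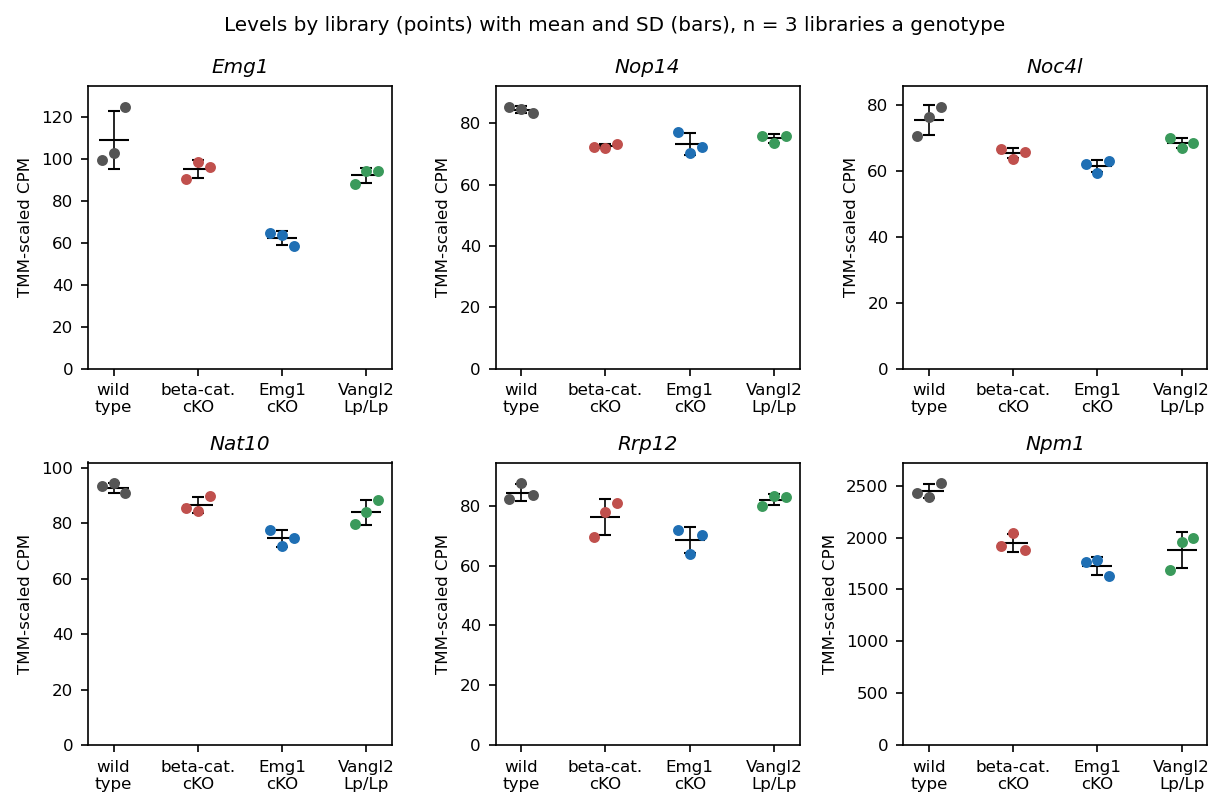
TMM-scaled CPM of 6 members (y axis, from 0) by genotype, with 1 point a library and bars for the mean and SD of 3 libraries. Emg1 falls to 58.5 to 64.5 CPM in Emg1 cKO, its partners Nop14 and Noc4l change far less, Nat10 and Rrp12 are lowest in Emg1 cKO, and Npm1 is lower in all 9 mutant libraries.

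UTP-A, the subcomplex that binds the transcript's leader and in yeast and human cells is tied to its transcription, had 4 of 6 members lower in beta-catenin cKO, 5 of 6 in Emg1 cKO and 4 of 6 in Vangl2 Lp/Lp. The class medians were -0.23, -0.28 and -0.24. Wdr43 was at 181, 187 and 179 CPM in wild type, 152, 158 and 151 in beta-catenin cKO, 158, 152 and 141 in Emg1 cKO, with 141, 151 and 153 in Vangl2 Lp/Lp. All mutant libraries were below wild type, with log2 fold changes of -0.25, -0.28 and -0.30 (SE 0.05 each, adjusted p = 0.00734, 0.00199 and 0.00367).

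Wdr75, another beta-propeller protein of UTP-A, gave near-identical changes of -0.27, -0.28 and -0.26 (adjusted p = 0.00515, 0.00222 and 0.00897). Both genes kept these calls with every library left out. Utp4, whose human counterpart is mutated in a childhood liver disease, was at -0.21, -0.32 and -0.24 (adjusted p = 0.0157, 0.000676 and 0.0121), and lost the call without wild type 2 or beta-catenin cKO 1 in the first comparison and without Vangl2 Lp/Lp 1 in the third. Utp15 was lower in beta-catenin cKO (-0.27 ± 0.06, adjusted p = 0.00812) and Emg1 cKO (-0.29 ± 0.06, adjusted p = 0.00299) and stood at -0.18 ± 0.06 in Vangl2 Lp/Lp (adjusted p = 0.0769). Nol11 was called in Vangl2 Lp/Lp alone (-0.25 ± 0.06, adjusted p = 0.0162, but 0.0751 without library 1). It stood at -0.18 ± 0.06 in beta-catenin cKO, just missing the threshold (adjusted p = 0.0528), and at -0.09 ± 0.06 in Emg1 cKO (adjusted p = 0.311). No UTP-A member was called directly between mutants. Heatr1, a large scaffold, was called in Emg1 cKO at -0.24 (adjusted p = 0.0151) and stood at -0.17 in the other two (0.0814 and 0.103). The Heatr1 call was lost without any 1 of 3 libraries, with adjusted p up to 0.0734.

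UTP-B, a complex made mostly of beta-propeller proteins that joins after UTP-A, had 5 of 6 members lower in beta-catenin cKO, all 6 in Emg1 cKO and 1 in Vangl2 Lp/Lp, with class medians of -0.22, -0.26 and -0.16. The exception in Vangl2 Lp/Lp was Wdr36, the member with the largest fold change of all in beta-catenin cKO and Vangl2 Lp/Lp. Its levels were 106, 99 and 104 CPM in wild type, 74.3, 81.2 and 81.0 in beta-catenin cKO, 85.9, 80.3 and 81.8 in Emg1 cKO, with 71.2, 86.4 and 77.0 in Vangl2 Lp/Lp.

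No mutant library came near the wild-type range for Wdr36. The changes were -0.39 ± 0.07 (adjusted p = 0.00169), -0.32 ± 0.07 (0.00381) and -0.40 ± 0.07 (0.00265), which is 23.5%, 19.8% and 24.1% lower, and each call held with every library left out. Wdr3 showed the opposite spread across mutants, at -0.19 ± 0.05 in beta-catenin cKO (adjusted p = 0.0224), -0.23 ± 0.05 in Emg1 cKO (0.00603) and -0.04 ± 0.05 in Vangl2 Lp/Lp (0.708). The first of these calls was lost when any 1 of 5 libraries was left out, with adjusted p up to 0.0794, and under 4 other settings. The direct contrasts of Wdr3 between Vangl2 Lp/Lp and the other mutants did not pass the test (adjusted p = 0.129 against beta-catenin cKO and 0.0649 against Emg1 cKO), so a difference between mutants was not shown. Pwp2, the least abundant UTP-B member, was at -0.22, -0.25 and -0.14 (adjusted p = 0.0230, 0.00747 and 0.167). Utp6, Utp18 and Tbl3 lay between -0.28 and -0.20 in both knockouts and between -0.19 and -0.15 in Vangl2 Lp/Lp, and Tbl3 was the UTP-B member that missed the threshold in the first knockout (adjusted p = 0.0529).

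The U3 snoRNP carries the U3 RNA, which base-pairs with the pre-ribosomal RNA. Its 4 members had 2 lower calls in beta-catenin cKO, 4 in Emg1 cKO and 2 in Vangl2 Lp/Lp, with medians of -0.19, -0.25 and -0.18. The core proteins Nop56 and Nop58 were the 2 called in each mutant, if weakly for Nop58. Its calls were lost when any 1 of 5 libraries in beta-catenin cKO, 3 in Emg1 cKO and 10 for Vangl2 Lp/Lp was left out, with adjusted p up to 0.108, 0.101 and 0.182. Nop56 was at 366, 378 and 412 CPM in wild type and at 322, 316 and 309 in Emg1 cKO, with a log2 fold change of -0.29 ± 0.06 (adjusted p = 0.00219) that held with every library left out.

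In beta-catenin cKO Nop56 changed by -0.19 ± 0.06 (adjusted p = 0.0379) and in Vangl2 Lp/Lp by -0.21 ± 0.06 (0.0331), and these calls were lost without any of 7 and 5 single libraries, with adjusted p up to 0.164 and 0.135. The methyltransferase Fbl and the U3-specific protein Rrp9 were called in Emg1 cKO at -0.21 ± 0.07 (adjusted p = 0.0377) and -0.32 ± 0.08 (0.00787). The Fbl call was lost without any of 5 libraries (adjusted p up to 0.129), and Rrp9 kept its call. Snord genes lie inside Nop56 and Nop58 in the annotation, and reads from those introns could have been counted to either. Small RNA genes also overlap Wdr43 (Snord53), Tsr1 (Snord91a) and Ncl (Snora75) on the same strand, with the same limit.

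The MPP10 complex, which docks U3 on its targets, had 2 of 4 members lower in beta-catenin cKO, 2 in Emg1 cKO and 1 in Vangl2 Lp/Lp, at medians of -0.20, -0.21 and -0.14. Mphosph10, its scaffold, was called in each, at 78.0, 74.1 and 79.1 CPM in wild type, 62.0, 64.5 and 64.9 in beta-catenin cKO, 67.1, 58.9 and 61.7 in Emg1 cKO, with 61.2, 63.5 and 64.0 in Vangl2 Lp/Lp. All mutant libraries were below wild type, and its changes of -0.27, -0.30 and -0.29 (SE 0.06 each, adjusted p = 0.00585, 0.00175 and 0.00565) held with every library left out. Imp4 was lower in beta-catenin cKO (-0.20 ± 0.05, adjusted p = 0.0243) and Emg1 cKO (-0.23 ± 0.05, adjusted p = 0.00832). The beta-catenin cKO call of Imp4 was lost without wild type 1, beta-catenin cKO 1 or beta-catenin cKO 2. Utp3 and Imp3 passed in no mutant, with values from -0.21 to -0.14.

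The processome's enzymes moved least as a class in beta-catenin cKO and Emg1 cKO, with 2, 3 and 2 of 5 called lower and medians of -0.11, -0.19 and -0.14. Rcl1, which in yeast binds the GTPase Bms1, was the one called in all 3 mutants. It was at 59.5, 59.4 and 62.9 CPM in wild type and 49.8, 45.9 and 42.6 in Emg1 cKO, with changes of -0.27 ± 0.06 (adjusted p = 0.0118), -0.40 ± 0.06 (0.000570) and -0.26 ± 0.06 (0.0228). The Emg1 cKO call held with every library left out, that in beta-catenin cKO was lost without its library 1 (0.0622), and that in Vangl2 Lp/Lp was lost without wild type 3 or Vangl2 Lp/Lp 1, with adjusted p up to 0.0988.

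Nat10, the acetyltransferase of 18S rRNA and tRNA, was called in Emg1 cKO alone among the comparisons with wild type. Its levels were 93.3, 94.3 and 90.7 CPM in wild type, 85.3, 84.5 and 89.7 in beta-catenin cKO, 77.7, 71.6 and 74.5 in Emg1 cKO, with 79.6, 83.9 and 88.5 in Vangl2 Lp/Lp. The 3 Emg1 cKO libraries were below the other 9, and the change of -0.31 ± 0.05 (adjusted p = 0.000953) held with every library left out. The direct contrast gave 0.21 ± 0.05 higher in beta-catenin cKO than in Emg1 cKO (adjusted p = 0.0453) and -0.17 ± 0.05 for Emg1 cKO against Vangl2 Lp/Lp (adjusted p = 0.119). The first of these calls was lost under 12 of the 24 other settings, with adjusted p up to 0.203. They include leaving out wild type 2, Vangl2 Lp/Lp 2, Emg1 cKO 2 or 3, or any beta-catenin cKO library. The helicase Dhx37, which in yeast removes U3, was close to wild type in value at -0.03, -0.03 and 0.05 (SE 0.07, adjusted p = 0.793, 0.787 and 0.735), and its sign in both knockouts depended on the scaling. Bms1 was called in Emg1 cKO (-0.19, adjusted p = 0.00966), and the helicase Ddx52 in beta-catenin cKO (-0.25, 0.0347) and Vangl2 Lp/Lp (-0.29, 0.0247), calls that Ddx52 lost without any of 7 and 5 single libraries.

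Among 10 other processome factors, 6 were lower in beta-catenin cKO, 7 in Emg1 cKO and 1 in Vangl2 Lp/Lp, with medians of -0.21, -0.20 and -0.13. The 1 called in all 3 was Dnttip2, the relative of yeast Fcf2, at -0.25, -0.29 and -0.29 (SE 0.06 each, adjusted p = 0.0181, 0.00492 and 0.0121). It lost the call without beta-catenin cKO 3 in the first comparison (0.0921) and without Vangl2 Lp/Lp 1 in the third (0.0646). The large scaffold Utp20 and the RNA-binding protein Nol6 passed in no mutant. Utp20 was at -0.04, -0.12 and -0.04 and Nol6 at -0.05, -0.11 and 0.05, with overlap of the libraries with wild type in each case and signs that depended on the scaling, except Nol6 in Vangl2 Lp/Lp. Rrp7a (-0.26, adjusted p = 0.00985), Nol10 (-0.25, 0.0144), Wdr46 (-0.23, 0.0239), Utp14a (-0.22, 0.0395) and Krr1 (-0.19, 0.0452) were the others called in beta-catenin cKO. In Emg1 cKO the same set without Nol10, and with Dcaf13 (-0.20, adjusted p = 0.0218) and Nop9 (-0.16, 0.0395), was called. Several of these calls rested on single libraries. In beta-catenin cKO Krr1 lost its call when any 1 of 8 libraries was left out, Utp14a with 5, Wdr46 with 4 and Nol10 with 2, while Rrp7a kept it. In Emg1 cKO Nop9 lost it with any 1 of 8, Utp14a with 7, Krr1 and Dcaf13 with 3 and Rrp7a with 2, while Wdr46 kept it.

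Pre-40S factors accompany the particle after the processome has come apart. Of 7, 4 were lower in beta-catenin cKO, 6 in Emg1 cKO and 4 in Vangl2 Lp/Lp, with medians of -0.23, -0.28 and -0.25. Tsr1, a GTPase-like protein of the cytoplasmic pre-40S particle, was at 130, 124 and 120 CPM in wild type, 106, 107 and 107 in beta-catenin cKO, 103, 93.3 and 95.4 in Emg1 cKO, with 98.5, 107 and 108 in Vangl2 Lp/Lp. All mutant libraries were below wild type. The changes were -0.23, -0.36 and -0.26 (SE 0.06 each, adjusted p = 0.0143, 0.000434 and 0.0112), with the call lost without library 1 of beta-catenin cKO (0.0551) and library 1 of Vangl2 Lp/Lp (0.0632).

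Bysl, the relative of yeast Enp1, was at 75.1, 79.6 and 78.5 CPM in wild type, 67.7, 63.7 and 64.7 in beta-catenin cKO, 64.8, 60.2 and 61.0 in Emg1 cKO, with 67.2, 64.8 and 64.5 in Vangl2 Lp/Lp. The changes of -0.25, -0.33 and -0.25 (SE 0.05 each, adjusted p = 0.00585, 0.000536 and 0.00951) held with every library left out. Pno1, the partner of the endonuclease Nob1, was called in all 3 at -0.29, -0.27 and -0.27 (adjusted p = 0.0200, 0.0211 and 0.0372), and lost the call in each when any 1 of 3 to 5 single libraries was left out. Riok1, a kinase of late maturation, passed in no mutant, and its Emg1 cKO libraries (61.1, 51.9 and 48.2 CPM) spanned the wild-type values of 57.4, 53.7 and 53.8. Ltv1 was called in all 3 mutants (-0.28, -0.28 and -0.25) and Nob1 in Emg1 cKO (-0.22, adjusted p = 0.0325). Ltv1 lost its call without beta-catenin cKO 1 in the first (0.0604) and without any 1 of 4 libraries in the third (up to 0.0971). Nob1 lost its call without any 1 of 4 libraries (up to 0.127).

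Rrp12, an export factor for both subunits in yeast, was lowest in Emg1 cKO. It was at 82.3, 87.5 and 83.6 CPM in wild type, 69.5, 78.1 and 81.1 in beta-catenin cKO, 71.8, 63.8 and 70.4 in Emg1 cKO, with 80.1, 83.4 and 82.9 in Vangl2 Lp/Lp. Emg1 cKO did not overlap with wild type (-0.30 ± 0.06, adjusted p = 0.00405, held with every library left out) or with Vangl2 Lp/Lp. The contrast of Emg1 cKO with Vangl2 Lp/Lp gave -0.26 ± 0.06 (adjusted p = 0.0424). That call was lost under 13 of 24 other settings, among them the loss of wild type 2, beta-catenin cKO 2 or any library of Emg1 cKO or Vangl2 Lp/Lp, with adjusted p up to 0.187 when a library was left out.

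The nucleolar phosphoproteins had the largest class medians, at -0.29, -0.41 and -0.33, over just 2 genes. Npm1, a chaperone that forms the outer layer of the nucleolus, was at 2435, 2392 and 2523 CPM in wild type, 1921, 2046 and 1883 in beta-catenin cKO, 1768, 1783 and 1632 in Emg1 cKO, with 1685, 1958 and 2001 in Vangl2 Lp/Lp. All 9 mutant libraries were below the wild-type ones. It was 20.4%, 29.5% and 23.2% lower, with log2 fold changes of -0.33, -0.50 and -0.38 (SE 0.07 each, adjusted p = 0.00384, 0.000107 and 0.00268), and these calls held under every setting tried. Processed copies of Npm1 are known in mammals, and how the counting treated reads shared with them is not stated, so its level is less certain.

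Ncl was at -0.25, -0.32 and -0.27 (SE 0.06 each, adjusted p = 0.0154, 0.00184 and 0.0141). It lost the call without beta-catenin cKO 1 or 3 and without Vangl2 Lp/Lp 1, with adjusted p up to 0.0732. In all 3 mutants the call was also lost with voom and quantile normalization, on log2(TPM + 1) and on log2(TPM + 0.1). Over all alternatives its adjusted p reached 0.381 in beta-catenin cKO, 0.205 in Emg1 cKO and 0.608 in Vangl2 Lp/Lp.

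Counted over the 3 comparisons, 16 members were lower in all of them, 12 in 2, 13 in 1 and 6 in none. The 16 came from every role class and were Bysl, Dnttip2, Ltv1, Mphosph10, Ncl, Nop14, Nop56, Nop58, Npm1, Pno1, Rcl1, Tsr1, Utp4, Wdr36, Wdr43 and Wdr75. The 6 were Dhx37, Imp3, Nol6, Riok1, Utp20 and Utp3. Of all genes tested, 1.75% were lower in all 3. Without Vangl2 Lp/Lp library 1 the 16 became 6, namely Bysl, Mphosph10, Npm1, Wdr36, Wdr43 and Wdr75, and the share of all genes 0.628%. Because the comparisons share their wild-type libraries, such repeats are not separate evidence.

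Directly between mutants few members were called. Of 47, 2 were called between beta-catenin cKO and Emg1 cKO (3.26% of all genes tested were, 1.37% higher and 1.89% lower in beta-catenin cKO), namely Emg1 and Nat10, both higher in beta-catenin cKO, and 2 between Emg1 cKO and Vangl2 Lp/Lp (2.83%, with 1.32% higher and 1.51% lower in Emg1 cKO), namely Emg1 and Rrp12, both lower in Emg1 cKO. Without Emg1 that leaves 1 of 46 in each. At an unadjusted p under 0.05 in the same test, Emg1 included, 6 members were higher in beta-catenin cKO than in Emg1 cKO. In Emg1 cKO against Vangl2 Lp/Lp 11 were lower and 1 was higher. The share of all genes at that unadjusted threshold was not computed. Between beta-catenin cKO and Vangl2 Lp/Lp (3.87% of all genes, 1.62% higher and 2.25% lower) edgeR called 0, as did DESeq2 and voom, and 1 member (Wdr3, -0.16) was under an unadjusted p of 0.05. Most members sat slightly lower in Emg1 cKO than in Vangl2 Lp/Lp, with 38 of 46 below 0 (50.4% of all genes tested) at a median of -0.08. All 3 Emg1 cKO libraries lay below all 3 of Vangl2 Lp/Lp for 14 of 47 members (11.2% of all genes tested). They lay above them for 1 (10.4%). A p that misses the threshold does not show that these genotypes are alike.

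**Figure D4:**
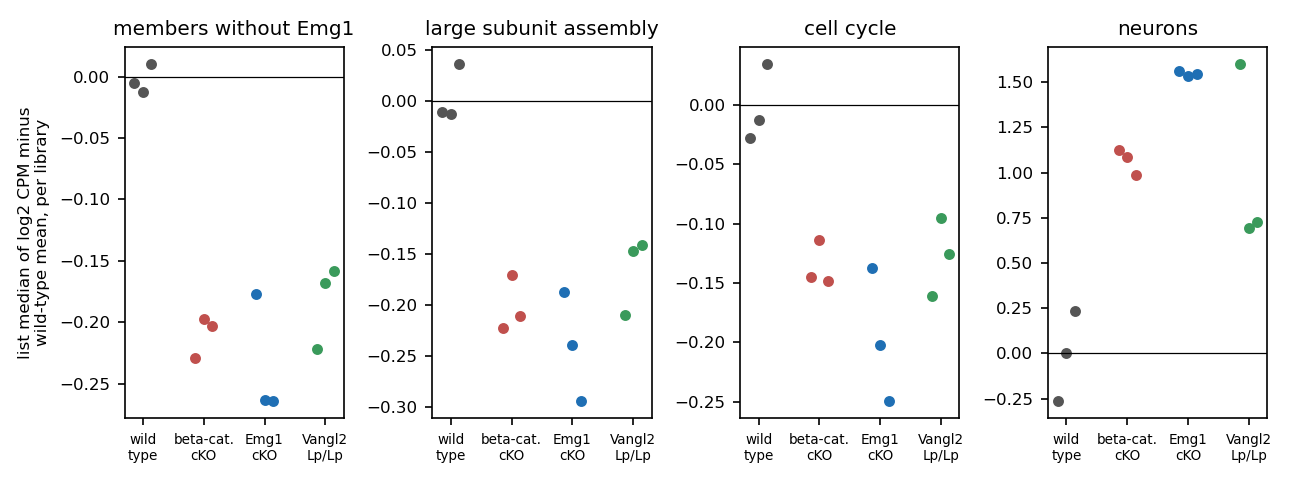
Median of a gene list in each library, as log2 CPM minus the wild-type mean (y axis, own scale in each panel), for the 46 members without Emg1, 52 large subunit assembly factors, 20 cell cycle genes and 12 neuronal genes. Each point is 1 library. Members lie between -0.26 and -0.16 in the 9 mutant libraries, and the neuronal list lies between 0.69 and 1.60 in the same libraries.

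Other lists of ribosome production had medians below 0 on the main scale. Beside the counts below, 6.99%, 10.4% and 3.34% of all genes tested were called lower in the 3 mutants. Of 52 large subunit assembly factors, 28 were lower in beta-catenin cKO, 34 in Emg1 cKO and 18 for Vangl2 Lp/Lp, with medians of -0.20, -0.25 and -0.17. The rRNA methyltransferase gene Nop2 was at -0.16, -0.31 and -0.14 (adjusted p = 0.0333, 0.000358 and 0.0807), and Rrp15 at -0.29, -0.44 and -0.27 (0.0137, 0.000571 and 0.0311). A further 22 small subunit factors outside the member list had 4, 9 and 2 lower calls and smaller medians of -0.14, -0.17 and -0.11. Among them the 18S dimethyltransferase gene Dimt1 was called in Emg1 cKO (-0.36 ± 0.07, adjusted p = 0.00313). Without Vangl2 Lp/Lp library 1, 6 of the 52 large subunit factors and 0 of the 22 further small subunit factors remained lower in that genotype.

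Of the 6 genes of the H/ACA snoRNP, which guides pseudouridylation, 2, 3 and 2 were lower, with Dkc1 at -0.26, -0.33 and -0.27 (adjusted p = 0.0105, 0.00126 and 0.0108). The RNA polymerase I list had 4, 6 and 4 of 17 lower, among them Nolc1 at -0.19, -0.32 and -0.22 (0.0191, 0.000428 and 0.0118). Small subunit ribosomal protein genes had 5, 16 and 2 of 32 lower, with medians of -0.19, -0.24 and -0.17, and 1 higher in beta-catenin cKO (Rps2). These genes share reads with many processed copies, and their median was 0.23 in wild-type library 3 against -0.19 and -0.05 in the other two. Leaving out Vangl2 Lp/Lp library 1 left 0 lower calls in that genotype among the H/ACA, RNA polymerase I and small subunit ribosomal protein genes.

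**Figure D5:**
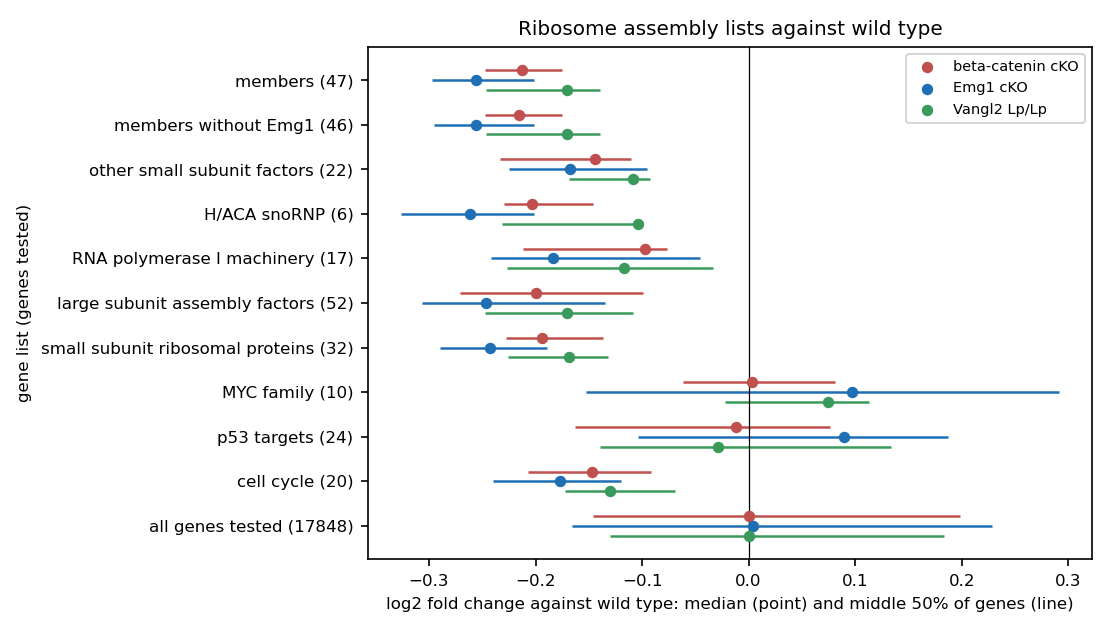
Median (point) and interquartile range over genes (line) of the log2 fold change against wild type (x axis) for each gene list (y axis, number tested in brackets) in the 3 mutants. The ribosome assembly lists have medians between -0.26 and -0.10, the MYC family and p53 target lists between -0.03 and 0.10, and all 17848 genes tested have a median of 0.00.

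Regulators linked to ribosome production were called in both directions. MYC and its relatives drive many nucleolar genes in other systems, and MXD proteins oppose them at the same sites. Of 10 MYC family genes, 1 was lower and 1 higher in beta-catenin cKO, 3 and 3 in Emg1 cKO, and 1 was higher in Vangl2 Lp/Lp, where Mycn was at -0.12 ± 0.07 and did not pass the test (adjusted p = 0.310). Mycn was lower in beta-catenin cKO (-0.38 ± 0.07, adjusted p = 0.00249) and Emg1 cKO (-0.45 ± 0.07, 0.000491), and Myc in Emg1 cKO (-0.39 ± 0.09, 0.00505). Mxd4 was higher in all 3, at 0.55, 0.70 and 0.52 (SE 0.08 each, adjusted p = 0.000459, 3.77e-05 and 0.00127).

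Failed ribosome assembly is known to activate p53 in many cells. Of 24 p53 target genes tested, 3 were lower and 2 higher in beta-catenin cKO, 3 and 4 in Emg1 cKO, and 4 and 1 for Vangl2 Lp/Lp. The medians were -0.01, 0.09 and -0.03. The Vangl2 Lp/Lp counts became 1 lower and 0 higher without library 1 of that genotype. The kinase gene Plk3 was higher in all 3, at 0.39, 0.55 and 0.42 (SE 0.10 each, adjusted p = 0.0168, 0.00126 and 0.0176), and Perp, which the surface ectoderm also expresses, was lower at -0.99, -0.88 and -0.38 (8.02e-05, 0.000124 and 0.0494).

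Marker genes of several cell types also differed between the same libraries. Of 12 neuronal genes, 10 were higher in beta-catenin cKO, 12 in Emg1 cKO and 11 for Vangl2 Lp/Lp, and their summed level was 293 to 391 TPM in wild type, 633 to 666, 924 to 987 and 550 to 1025 TPM in the mutants, in that order. Without Vangl2 Lp/Lp library 1, 9 of the 12 were higher in that genotype. Neural progenitor genes were higher in 5, 5 and 6 of 8, at 273 to 294 TPM in wild type and 370 to 442, 395 to 443 and 374 to 398 TPM in the mutants. Surface ectoderm genes were lower in 5, 12 and 4 of 12 (1 without Vangl2 Lp/Lp library 1), at 464 to 561 TPM in wild type and 421 to 458, 283 to 376 and 353 to 435 TPM in the mutants.

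Cell cycle genes were lower in 8, 12 and 3 of 20 (0 in Vangl2 Lp/Lp without its library 1), with medians of -0.15, -0.18 and -0.13. Their summed levels overlapped with wild type in every mutant. They were 4717 to 5035 TPM in wild type and 4738 to 4874, 4558 to 4992 and 4590 to 4834 TPM in the mutants. Red cell genes were lower in 8, 9 and 3 of 9, at 27367 to 32706 TPM in wild type, 19572 to 20566 in beta-catenin cKO, 15463 to 20899 in Emg1 cKO and 18600 to 29085 for Vangl2 Lp/Lp. Of 10 somite and mesenchyme genes, 3, 4 and 2 were higher and 3 were lower in beta-catenin cKO. Of 8 endothelial genes 3 were lower in Emg1 cKO and 2 in Vangl2 Lp/Lp (0 without Vangl2 Lp/Lp library 1). None of these marker genes had 0 counts in any library. Their part in the lower levels of the members was not tested.

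Promoters are shown because most members were lower by value in each mutant. Whether members vary together across libraries was not tested. RefSeq's promoter table (GRCm38.p6, 250 bases before to 50 after the start) held 39 of the 47 members. The E-box CACGTG, the site that MYC and MAX bind, was present on either strand in 11 of 39 (28.2%), against 9.60% of 14251 promoters of genes tested and 7.15% of all 32851 promoters in the table. The ETS core CCGGAAG was in 14 of 39 (35.9%) against 16.1% and 8.86%, and TATAAA in 1 of 39 (2.56%) against 7.54% and 13.6%. The table can list more than 1 promoter for a gene, and 1 was used for each member. Matches of different motifs cannot overlap one another. Large subunit assembly factors held the E-box in 21.6% and the ETS core in 41.2% of 51 promoters of 44 genes. The further small subunit factors outside the member list held them in 23.8% and 42.9% of 21 promoters of 17 genes. Of the members lower in all 3 mutants, Bysl, Dnttip2, Mphosph10, Ncl, Nop14, Nop56, Nop58, Rcl1 and Wdr75 held no E-box. Ltv1, Pno1, Tsr1, Utp4 and Wdr43 held 1 each. The promoters of Emg1 and of 3 of those with an E-box are printed to show these matches in place, with each E-box and ETS match in capitals.
Emg1 chr6:124712129-124712428, minus strand: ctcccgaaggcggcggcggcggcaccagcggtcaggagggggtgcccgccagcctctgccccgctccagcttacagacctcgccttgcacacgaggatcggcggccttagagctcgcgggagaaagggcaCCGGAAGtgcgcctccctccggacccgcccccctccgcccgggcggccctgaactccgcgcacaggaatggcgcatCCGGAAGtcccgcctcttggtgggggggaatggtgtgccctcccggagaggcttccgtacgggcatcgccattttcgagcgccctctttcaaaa
Utp4 chr8:106893390-106893689, plus strand: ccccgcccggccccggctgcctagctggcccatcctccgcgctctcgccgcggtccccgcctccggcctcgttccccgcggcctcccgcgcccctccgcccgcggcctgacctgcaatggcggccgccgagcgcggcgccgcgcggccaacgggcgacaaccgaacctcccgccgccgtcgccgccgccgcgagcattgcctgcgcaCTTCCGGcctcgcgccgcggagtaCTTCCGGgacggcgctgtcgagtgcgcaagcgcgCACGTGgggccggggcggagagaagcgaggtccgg
Tsr1 chr11:74897830-74898129, plus strand: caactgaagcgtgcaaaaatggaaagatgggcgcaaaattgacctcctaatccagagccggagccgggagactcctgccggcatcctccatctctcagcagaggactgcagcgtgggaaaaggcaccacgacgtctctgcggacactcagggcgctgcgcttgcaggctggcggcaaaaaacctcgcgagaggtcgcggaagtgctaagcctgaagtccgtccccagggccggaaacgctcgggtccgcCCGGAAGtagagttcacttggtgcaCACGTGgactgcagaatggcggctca
Wdr43 chr17:71615965-71616264, plus strand: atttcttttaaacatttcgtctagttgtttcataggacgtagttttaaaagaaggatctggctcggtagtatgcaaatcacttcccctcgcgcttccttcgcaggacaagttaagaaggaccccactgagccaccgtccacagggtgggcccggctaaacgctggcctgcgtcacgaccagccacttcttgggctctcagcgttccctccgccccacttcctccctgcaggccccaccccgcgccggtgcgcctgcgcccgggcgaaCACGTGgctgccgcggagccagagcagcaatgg

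The Emg1 window held 2 ETS cores and no E-box, while the E-boxes of Utp4, Wdr43 and Tsr1 lay 15, 17 and 24 bases after the annotated start. The 11 members with an E-box had medians of -0.23, -0.28 and -0.24 in beta-catenin cKO, then Emg1 cKO and then Vangl2 Lp/Lp, with 9, 9 and 6 lower. The 28 without it had medians of -0.21, -0.23 and -0.17, with 17, 22 and 10 lower. The 14 members with an ETS core had medians of -0.218, -0.265 and -0.171 in the same order, with 9, 11 and 4 lower. The 25 without it had medians of -0.219, -0.227 and -0.177, with 17, 20 and 12 lower. No test was made of these splits, and letters in a window do not show which factors bind there.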

How the data were processed

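RNA was extracted with a miRNeasy kit and made into TruSeq Stranded mRNA libraries, per the labels' protocols. Trimmomatic 0.39, STAR 2.7.10b and mm10 are named in the submitters' processing notes, and the sources used here do not give the counter, its strand setting or the annotation release. The authors deposited log2 TPM values (1 TPM or less set to 0) and an expected count per gene and library, with fractions and no normalization. Expected counts were rounded here for the tests. TPM values above 1 are the deposited ones, and those at 1 TPM or less were rebuilt from the unrounded counts.

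The 17848 genes at 1 TPM or more in at least 3 of 12 libraries were tested with edgeR 4.0.16 in R 4.3.3, in 1 fit of all libraries with TMM factors (trimmed mean of M values), with Benjamini-Hochberg adjustment per comparison at 0.05. Standard errors are the log2 fold change divided by the square root of F. On simulated counts for Emg1 cKO against wild type, with 50 genes at each of 4 fold sizes among 17848, the test called 10 at 0.8-fold, 3 at 1.25-fold, 38 at 1.5-fold and 49 at 2-fold, and 4 of 17648 unchanged genes. Far fewer genes changed there than the 21.7% called in the data, which makes the adjusted threshold stricter. These rates therefore do not give the power for the members. DESeq2 1.42.0, limma 3.58.1, other scalings, filters and left-out libraries were alternatives.

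Members and lists were chosen with earlier results of these data known. The naming rule took Emg1, Nop14 and Noc4l, the 8 called members of smallest adjusted p without overlap in each mutant, the 3 most against the majority direction, up to 5 called between mutants, the most and least abundant member of each class, and 2 genes of each other list. Other members named, such as Fbl and Ddx52, were chosen after their values were seen. Gene positions come from GENCODE vM21.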

Additional observations from a re-analysis of the deposited data

How the results depend on the processing

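Every alternative kept the members' median below 0 in each mutant, and no alternative called a member higher against wild type. Counts of lower members moved by over 1.5 times with library totals alone (18 in beta-catenin cKO), on log2(TPM + 1) and equally on log2(TPM + 0.1) (2, 9 and 3 in beta-catenin cKO, then Emg1 cKO and then Vangl2 Lp/Lp), and with only the 2 groups compared in the fit (9 in Vangl2 Lp/Lp). Centring each library on its median gene, an alternative chosen after seeing the data, gave 31, 38 and 18. Leaving out single libraries gave 12 to 31, 29 to 38 and 6 to 20 lower members, 0 to 0 higher ones in each mutant, and 1 to 2, 0 to 0 and 1 to 3 called in beta-catenin cKO against Emg1 cKO, beta-catenin cKO against Vangl2 Lp/Lp and Emg1 cKO against Vangl2 Lp/Lp. Each of the first and last pairs kept 1 called member, Emg1, on log2(TPM + 1), centred or not, and log2(TPM + 0.1); so did the first with no filter, and the last with only the 2 groups compared. The cause of these differences was not tested.

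Without Emg1, the median in beta-catenin cKO was -0.170 with library totals alone, -0.191 with upper-quartile factors, -0.196 with voom and quantile normalization, -0.102 on log2(TPM + 1), -0.237 there after centring, and -0.103 on log2(TPM + 0.1). Under library totals and the last-named pair of uncentred TPM scales it was -0.204, -0.133 and -0.135 in Emg1 cKO, with -0.131, -0.0840 and -0.0849 for Vangl2 Lp/Lp. Leaving out libraries gave -0.228 to -0.207, -0.285 to -0.231 and -0.196 to -0.164 without Emg1, and -0.87 to -0.70 for Emg1 in its own knockout.

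Replicate numbers do not pair the libraries, since deviations of same-numbered libraries correlated at -0.10 to 0.10. With the replicate block, 27, 37 and 15 members were lower, and 1 was called in beta-catenin cKO against Emg1 cKO and 1 in Emg1 cKO against Vangl2 Lp/Lp.

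Signs turned for members, those named by rule given first. On log2(TPM + 1) and log2(TPM + 0.1) respectively, beta-catenin cKO gave Dhx37 0.0765 and 0.0785, Utp20 0.0754 and 0.0770, Nol6 0.0656 and 0.0666, Nat10 0.0117 and 0.0120, Riok1 0.0477 and 0.0501, and Bms1 0.00520 and 0.00524. Emg1 cKO gave Dhx37 0.0839 and 0.0861, Utp20 0.00220 and 0.00240, Nol6 0.00782 and 0.00796, Riok1 0.0762 and 0.0797, and Nol11 0.0322 and 0.0327. Vangl2 Lp/Lp gave Utp20 0.0424 and 0.0433, Wdr3 0.0469 and 0.0477, and Rrp12 0.0440 and 0.0446. On log2(TPM + 1) Nol10 in Emg1 cKO (0.000998) and Fbl (0.0203) and Nop9 (0.0185) in Vangl2 Lp/Lp were also above 0. With library totals alone Dhx37 was 0.0108 in beta-catenin cKO and 0.0184 in Emg1 cKO, Utp20 0.00577 in beta-catenin cKO, Riok1 0.0182 in Emg1 cKO and Wdr3 0.00180 in Vangl2 Lp/Lp. Leaving out single libraries gave -0.0785 to 0.0156 for Dhx37 and -0.107 to 0.0209 for Utp20 in beta-catenin cKO, -0.0869 to 0.0182 for Dhx37 and -0.139 to 0.0394 for Riok1 in Emg1 cKO, and -0.112 to 0.0170 for Utp20 with Vangl2 Lp/Lp. Of 89 calls on members over all comparisons, 43 held with every library left out and 16 under all alternatives.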
